A study of Mus musculus with 34 samples.

Results

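Mouse CAD cells that had been transfected with pUC19 plasmid DNA were compared with untransfected CAD cells in serum, across all genes. The libraries were chosen by their titles, which give 2 pUC19 libraries and 2 libraries with no transfection named, 4 of the 34 libraries of the series. CAD is a neuronal cell line derived from a catecholaminergic tumour of the mouse brain, and the labels call it neuroblastoma. All 4 libraries are labelled as a double knockout (DKO) of mir-138, so both groups lack the same microRNA by label. The experiment that these 4 libraries belong to holds no wild-type library. All were grown in DMEM/F12 medium with 10% fetal bovine serum and collected at 0 days of serum withdrawal. Per the labels' protocols, the transfected cells were plated on poly-l-lysine, and mimics (synthetic microRNA duplexes) were given at 3 nM with Lipofectamine RNAiMAX, with serum removed 48 h later. The labels state neither the dose of pUC19 nor its reagent, nor whether the untransfected cells saw a reagent. The titles read DKO_2 for the untransfected cells and DKO for the transfected cells, and what the 2 marks is not stated, so the transfection and a difference between cultures or lines cannot be told apart. Nothing in the labels says that the 2 libraries of a group came from separate cultures. The p-values then measure only the spread between libraries within groups, shared over the 7 groups of the experiment. That spread may be technical.

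pUC19 is a small bacterial cloning plasmid, used as carrier or filler DNA because it encodes no mammalian product. Cells that take up foreign DNA and a cationic lipid can respond through several known routes. DNA in the cytosol is sensed by cGAS, which signals through STING to interferon-induced genes. Stress kinases that phosphorylate the translation factor eIF2alpha raise translation of the transcription factor ATF4, whose targets include Ddit3, Trib3, Chac1 and amino acid transporters. Unfolded protein in the endoplasmic reticulum (ER) activates the sensors IRE1, ATF6 and PERK, which raise chaperones such as Hspa5, and oxidants activate NRF2, which raises Hmox1 and the cystine carrier Slc7a11.

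The 2 untransfected libraries held 20199654 and 20729475 reads assigned to genes and the pUC19 libraries 18805687 and 12885638. Replicates correlated at r = 0.998 (untransfected) and 0.9973 (pUC19) over log2 CPM, counts scaled to library size, of the tested genes, which are not independent replicates. Of the targeted loci, Mir138-1 held 28 and 29 reads in the untransfected libraries and 18 and 15 in the pUC19 libraries, and Mir138-2 held 0 in all 4. In the first experiment Mir138-1 held 18 and 18 reads in wild-type and 242 and 217 in DKO libraries, so reads at this locus do not check the knockout, which rests on the label. The neuronal tubulin gene Tubb3 was expressed in all 4 libraries, at 20.1 to 32.9 CPM, while Th, the first enzyme of catecholamine synthesis, reached at most 0.305 CPM. Markers of other cell types were low in all 4 libraries: 7 immune markers summed to 0.791 to 1.07 CPM, 7 glial markers to 4.42 to 5.65, 5 fibroblast markers to 7.07 to 9.82 and 4 epithelial markers to at most 0.157. The 5 endothelial markers summed to 12.3 to 14.4 CPM and the 5 muscle markers to 183 to 200, the latter nearly all from Myh3.

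Many transcripts of the ATF4 pathway, the unfolded protein response, NRF2 targets and immediate-early genes were higher in the pUC19 libraries, with Atf3 and Ddit3 more than 10-fold higher. Many transcripts of mitosis and DNA replication were lower, by less than 2-fold. Of 12655 genes tested, 3321 (26.2%) passed a false discovery rate (FDR) of 0.05 in edgeR's quasi-likelihood test with Benjamini-Hochberg adjustment. Of these, 1357 (10.7%) were higher in the pUC19 libraries and 1964 (15.5%) lower. Most differences were small, since 2743 of the 3321 (82.6%) were under 1.5-fold. At least 2-fold differences were found for 215 higher (1.7%) and 63 lower (0.498%) genes, and DESeq2 gave 32 lower genes of that size. The split depended on which libraries entered the fit, which sets the scaling, the filter and the estimated spread together. Higher genes made up 40.9% of calls with all 14 libraries of the experiment (43.7% when RLE replaced TMM scaling), 52.3% with the serum libraries alone (1803 higher, 1645 lower) and 54.1% with the 4 libraries alone (1618 higher, 1372 lower). Leaving out 1 of the 4 libraries lowered the count to between 1730 (without untransfected replicate 1) and 2764 (without pUC19 replicate 1), and to 1750 without pUC19 replicate 2, the shallowest. Groups did not overlap for 7974 genes (63%).

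**Figure D1:**
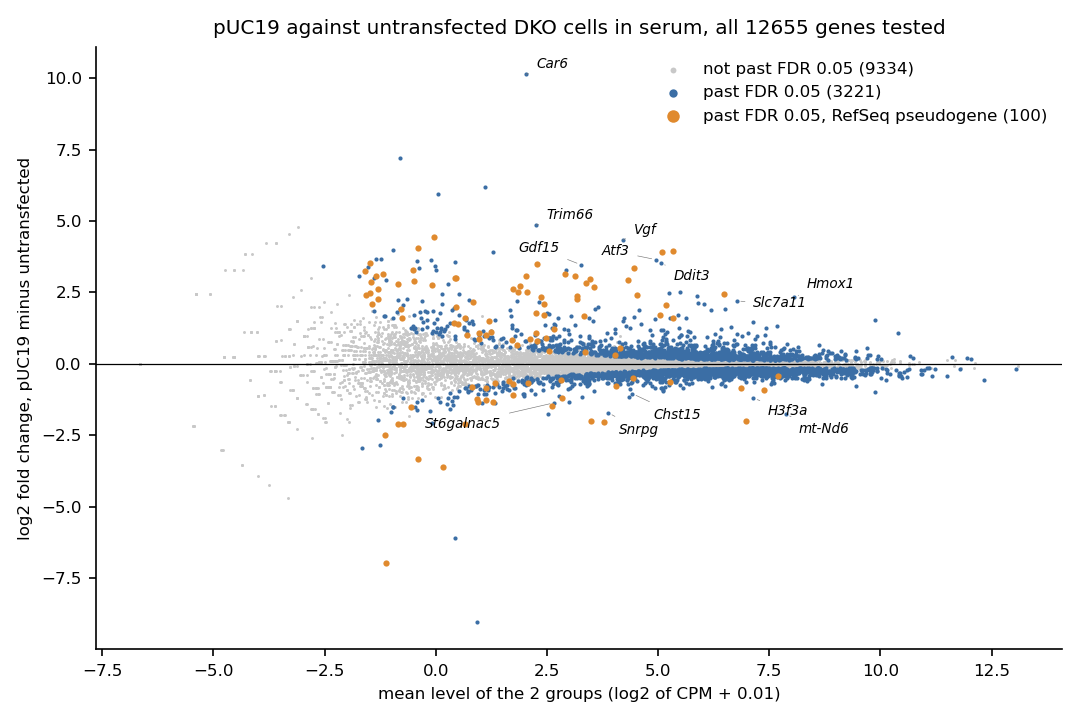
Fitted log2 fold change of pUC19 minus untransfected libraries (vertical) against the mean level of the groups (horizontal, log2 of CPM + 0.01), with 1 point for each of the 12655 genes tested. Blue points passed an FDR of 0.05, orange points passed and are RefSeq pseudogenes, and grey points did not pass. The labelled stress genes Atf3, Ddit3 and Hmox1 lie well above the dense band near 0, and the fitted value of Car6, which had 0 untransfected reads, is not a bound.

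In the plot of fold change against level, most calls lie in the band of small differences, and the large differences were mainly rises. Among the 9547 protein-coding genes with at least 5 CPM, 64 were at least 2-fold higher and 11 at least 2-fold lower.

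ATF4 targets held several of the largest rises. Of 23 tested members of the ATF4 list, 16 were higher, 1 was lower (Cth, a cysteine-synthesis enzyme) and 6 did not pass, with a median log2 fold change of 0.66 against -0.04 over all genes. Ddit3 encodes CHOP, a transcription factor of prolonged stress. It was at 4.9 and 5.75 CPM in the untransfected libraries and at 60.6 and 62.2 CPM in the pUC19 libraries, a log2 fold change of 3.52 ± 0.13 (SE, adjusted p = 1.86e-13). Atf3, a stress-induced partner of the AP-1 factors, was at 4.43 and 4.68 CPM against 56.9 and 57.4 CPM (log2 fold change 3.65 ± 0.19, adjusted p = 2.89e-11). For both genes the groups lay more than 10-fold apart and the 2 libraries of each group were close. With unstranded counts the log2 fold change of Ddit3 was 2.71, under 10-fold. Trib3, a pseudokinase that restrains this response, was at 11 and 12.1 CPM against 63.5 and 65.3 CPM (log2 fold change 2.48 ± 0.09, adjusted p = 1.86e-13). Slc7a11, the cystine importer, was at 41.4 and 36.2 CPM against 184 and 173 CPM (log2 fold change 2.20 ± 0.08, adjusted p = 1.21e-13). Both were higher in both pUC19 libraries than in either untransfected one.

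Atf4 itself rose by less than Ddit3, Atf3, Trib3 and Slc7a11. Its transcript was at 362 and 357 CPM in the untransfected libraries and at 472 and 455 CPM in the pUC19 libraries, a log2 fold change of 0.37 ± 0.05 (adjusted p = 2.88e-05). Chac1, which degrades glutathione, was at 27.9 and 32 CPM against 57 and 65 CPM, and Asns, asparagine synthetase, at 487 and 463 CPM against 568 and 561 CPM (log2 fold changes 1.02 and 0.25, adjusted p = 5.37e-08 and 0.00218). The list was uneven: the serine-synthesis enzyme Psat1, at 719 and 689 CPM against 655 and 657 CPM, and Pycr1, of proline synthesis, did not pass (adjusted p = 0.26 and 0.169).

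Promoter sequences of list members are shown because the ATF4 and unfolded protein response lists rose together and each has a known response element. Promoters were the 250 bases before the transcription start in RefSeq's GRCm38.p6 annotation, with 22 of the 24 genes of the ATF4 list matched by symbol. The C/EBP-ATF response element was searched as TGATGNAA on both strands, where its reverse complement reads TTNCATCA. It was found in 1134 of 32851 promoters (3.45%), in 2.32% of the 9464 tested genes with a promoter entry, and in 7 of the 22 ATF4 list genes. In the lines that follow, the capitals mark the match within 30 bases.
Atf3: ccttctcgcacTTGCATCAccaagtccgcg
Chac1: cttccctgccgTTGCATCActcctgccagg
Asns: tcccagccacaTGATGAAActtcccgcacg
Nupr1: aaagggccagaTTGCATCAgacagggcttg
Slc7a11, first: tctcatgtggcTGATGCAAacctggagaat
Slc7a11, second: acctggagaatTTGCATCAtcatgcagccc
Pycr1: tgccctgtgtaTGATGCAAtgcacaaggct
Each is read on the gene's strand. The sites lie at chr1:191183425-191183454 (Atf3, minus strand), chr2:119351038-119351067 (Chac1, plus), chr6:7693214-7693243 (Asns, minus) and chr7:126625562-126625591 (Nupr1, minus). The 2 Slc7a11 sites lie on the minus strand at chr3:50443661-50443690 and chr3:50443642-50443671, and that of Pycr1 on the minus strand at chr11:120643833-120643862. A match describes letters, not binding. The list was put together as genes of the ATF4 pathway, so a share above that of all promoters can come from that choice. It is no result of these libraries. Of the 7 genes with a match, Atf3, Chac1, Asns, Slc7a11 and Nupr1 (2.48 and 2.7 CPM against 9.45 and 8.09 CPM) were higher, Pycr1 did not pass and Vldlr was below the count filter. Ddit3 and Trib3 had no match within this window.

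The unfolded protein response list rose almost throughout. Of its 16 members, 14 were higher, 0 lower and 2 did not pass (Canx and Dnajb11, ER folding factors), with a median log2 fold change of 0.38. Fewer were called higher without pUC19 replicate 1 or either untransfected replicate, and the median was 0.34 without untransfected replicate 2. Hspa5, the main ER chaperone (BiP), was at 894 and 825 CPM in the untransfected libraries and at 1870 and 1779 CPM in the pUC19 libraries (log2 fold change 1.09 ± 0.06, adjusted p = 5.21e-11). Among the named genes this was the largest gain in CPM. Herpud1, which supports degradation of ER proteins, was at 75.9 and 74.5 CPM against 206 and 205 CPM (log2 fold change 1.45 ± 0.06, adjusted p = 1.32e-12). Dnajb9, an Hspa5 co-chaperone, was at 23.4 and 17.9 CPM against 70.3 and 63.7 CPM (log2 fold change 1.70 ± 0.10, adjusted p = 4.61e-10). Xbp1, the factor spliced by IRE1, was at 183 and 187 CPM against 269 and 276 CPM, which counts all transcripts and not the spliced form. The chaperone genes Hsp90b1 and Calr rose by less, 0.27 and 0.19 on the log2 scale (adjusted p = 0.00471 and 0.0344).

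The ER stress response element, bound by ATF6 with NF-Y, was searched on both strands as CCAAT and CCACG with any 9 bases between them. It was found in 37 of 32851 promoters (0.113%), in 0.18% of tested genes with a promoter entry, in 6 of the 14 unfolded protein response genes with an entry and in 0 of the 22 ATF4 list genes. This list too was put together by pathway, so its share can come from the choice of genes and is no result of these libraries. Capitals again mark the match.
Hspa5: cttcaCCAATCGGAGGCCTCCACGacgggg
Dnajc3: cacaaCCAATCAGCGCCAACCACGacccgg
Creld2: cttctCGTGGCGAGCCTCAATTGGtccaca
Calr: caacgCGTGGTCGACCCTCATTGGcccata
Hsp90b1, first: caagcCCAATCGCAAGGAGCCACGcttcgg
Hsp90b1, second: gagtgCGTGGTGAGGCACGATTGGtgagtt
Canx: attgaCCAATCACCACGCTCCACGaagaat
These lie at chr2:34772020-34772049 (Hspa5, plus strand), chr14:118937822-118937851 (Dnajc3, plus), chr15:88819515-88819544 (Creld2, plus) and chr8:84847069-84847098 (Calr, minus). The Hsp90b1 sites lie on the minus strand at chr10:86705632-86705661 and chr10:86705527-86705556, and that of Canx on the minus strand at chr11:50325794-50325823. Matching genes differed in response, from Hspa5 (1.09) and Creld2 (81.4 and 82.7 CPM against 134 and 133 CPM, log2 fold change 0.71) through Dnajc3 (0.34) to Canx (-0.12, adjusted p = 0.18). Herpud1 and Dnajb9 had no match to this element in their windows. Herpud1 was the 1 of 14 unfolded protein response genes with the C/EBP-ATF element (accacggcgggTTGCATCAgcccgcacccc, chr8:94386306-94386335, plus strand).

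**Figure D2:**
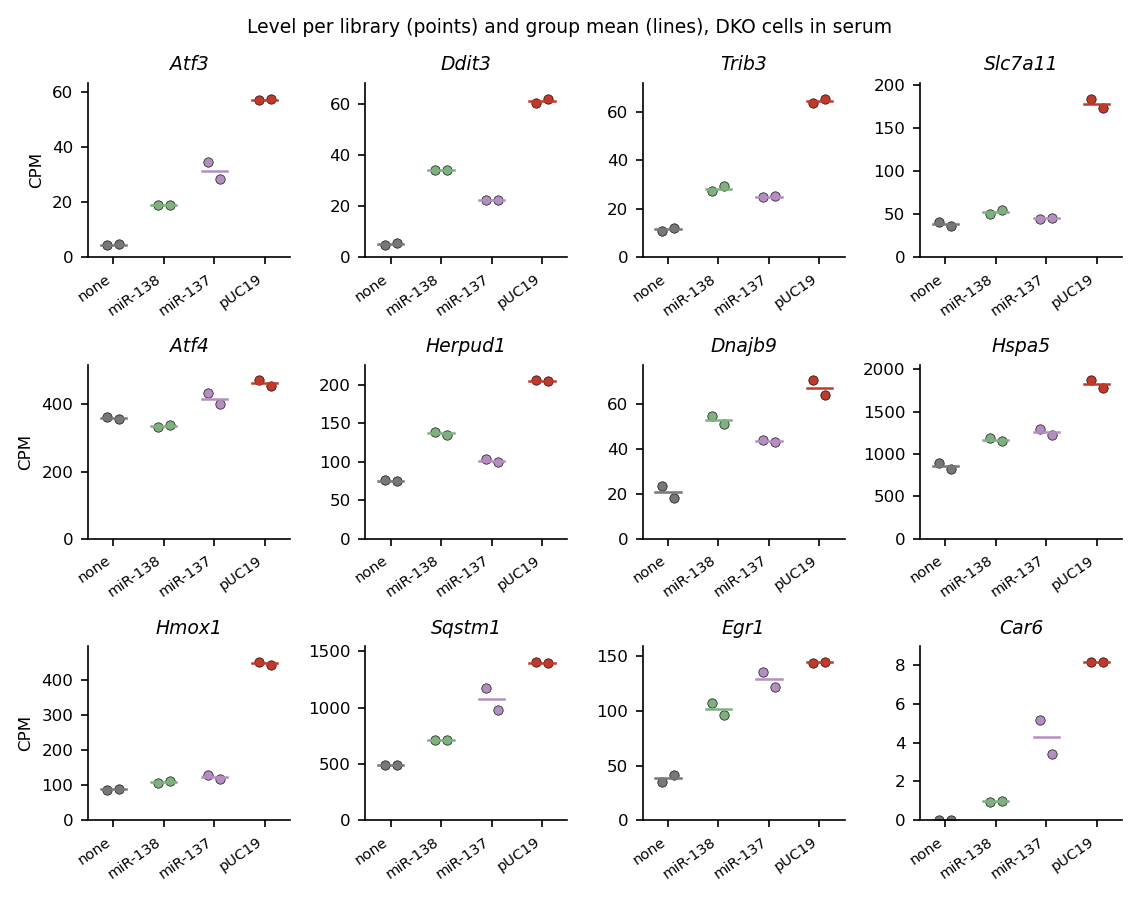
CPM per library (vertical, linear axes from 0) of 12 genes in untransfected (none), miR-138 mimic, miR-137 mimic and pUC19 libraries in serum, with 1 point per library and a line at the group mean. Both pUC19 libraries lie above both untransfected ones in every panel, but all 12 genes had been called higher, so this is no separate result. Groups did not overlap, in either direction, for 7974 of the 12655 genes tested (63%). The mimic libraries lie below pUC19 for Ddit3, Atf3 and Hmox1.

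The plot of stress genes sets the pUC19 libraries beside cells that received a microRNA mimic in the same experiment. Ddit3 was at 34.1 and 34.2 CPM with the miR-138 mimic and at 22.3 and 22.6 CPM with the miR-137 mimic, between the untransfected and the pUC19 levels. Hmox1, at 106 and 112 CPM and at 129 and 118 CPM, lay near the untransfected level. Of the 12 largest rises, both libraries lay between untransfected and pUC19 for 11 genes with the miR-138 mimic and 10 with the miR-137 mimic. For the 12 largest falls, both libraries lay between for 3 genes with each mimic. Both lay at or past the pUC19 level for 7 with the miR-138 mimic and 6 with the miR-137 mimic. These genes were picked as extremes of pUC19 against untransfected libraries, which alone makes a place between them likely for another group. The positions were not counted over all tested genes. The mimic groups share the untransfected and pUC19 libraries as references, so these positions are levels side by side and not a separate test. Against pUC19, 7089 genes (56%) passed with the miR-138 mimic, 433 of them at least 2-fold higher (3.42%) and 473 at least 2-fold lower (3.74%). With the miR-137 mimic 5770 genes (45.6%) passed, 128 at least 2-fold higher (1.01%) and 513 at least 2-fold lower (4.05%). Each count exceeded the 3321 of pUC19 against untransfected cells, and the difference between counts was not tested.

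NRF2 targets were mostly higher. Hmox1, haem oxygenase, was at 86.8 and 88.6 CPM in the untransfected libraries and at 451 and 443 CPM in the pUC19 libraries (log2 fold change 2.35 ± 0.07, adjusted p = 8.2e-15), the lowest adjusted p of the named genes. Of 23 NRF2 list members, 14 were higher, 3 were lower (Gsr, Prdx1 and Mgst1) and 6 did not pass, with a median of 0.20. Fewer members were called higher when any of the 4 libraries was left out. The 3 falls lost their calls without pUC19 replicate 2 or untransfected replicate 1. Sqstm1, the autophagy receptor p62, was at 486 and 489 CPM against 1406 and 1393 CPM (log2 fold change 1.52 ± 0.08, adjusted p = 2.47e-11). Srxn1, sulfiredoxin, was at 47.3 and 46.8 CPM against 93.4 and 88.1 CPM. Iron genes moved in both directions, with 45.5% of the list higher and 27.3% lower, beside 10.7% and 15.5% over all genes. Slc40a1, the iron exporter, was at 10.4 and 9.26 CPM against 24.6 and 20.9 CPM. Slc39a10 and Ireb2 were lower (log2 fold changes -0.33 and -0.31). In the DKO serum libraries of the first experiment Slc40a1 was at 25.8 and 28.6 CPM. Slc39a10 was at 163 and 140 CPM there and Ireb2 at 96.2 and 120 CPM. Of the 11 genes of that list, 5 were higher and 3 lower, with 2 higher when pUC19 replicate 2 or either untransfected replicate was left out.

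Lysosome and autophagy transcripts rose more often than they fell. Of 34 tested members, 13 were higher (38.2%) and 2 lower (5.88%), with a median of 0.14, beside 10.7% and 15.5% over all genes. The 2 falls lost their calls with any of the 4 libraries left out. Fewer members were called higher without either pUC19 replicate or untransfected replicate 2, and the median was 0.098 without untransfected replicate 2. Ctsb, the protease cathepsin B, was at 181 and 184 CPM against 287 and 303 CPM (log2 fold change 0.69), and Atp6v0d1, of the proton pump, at 102 and 104 CPM against 144 and 161 CPM (0.56). Both Sqstm1 and the lysosomal glycoprotein gene Gpnmb were members. Gpnmb was barely detected, at 0.264 and 0.102 CPM against 1.97 and 1.65 CPM. Plin2, which coats lipid droplets, was at 30.6 and 32.7 CPM against 69.3 and 72.4 CPM. It led the 3 of 11 sterol efflux and lipid droplet genes that were higher (27.3%), with 0 lower. Without untransfected replicate 1 the count was 1.

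**Figure D3:**
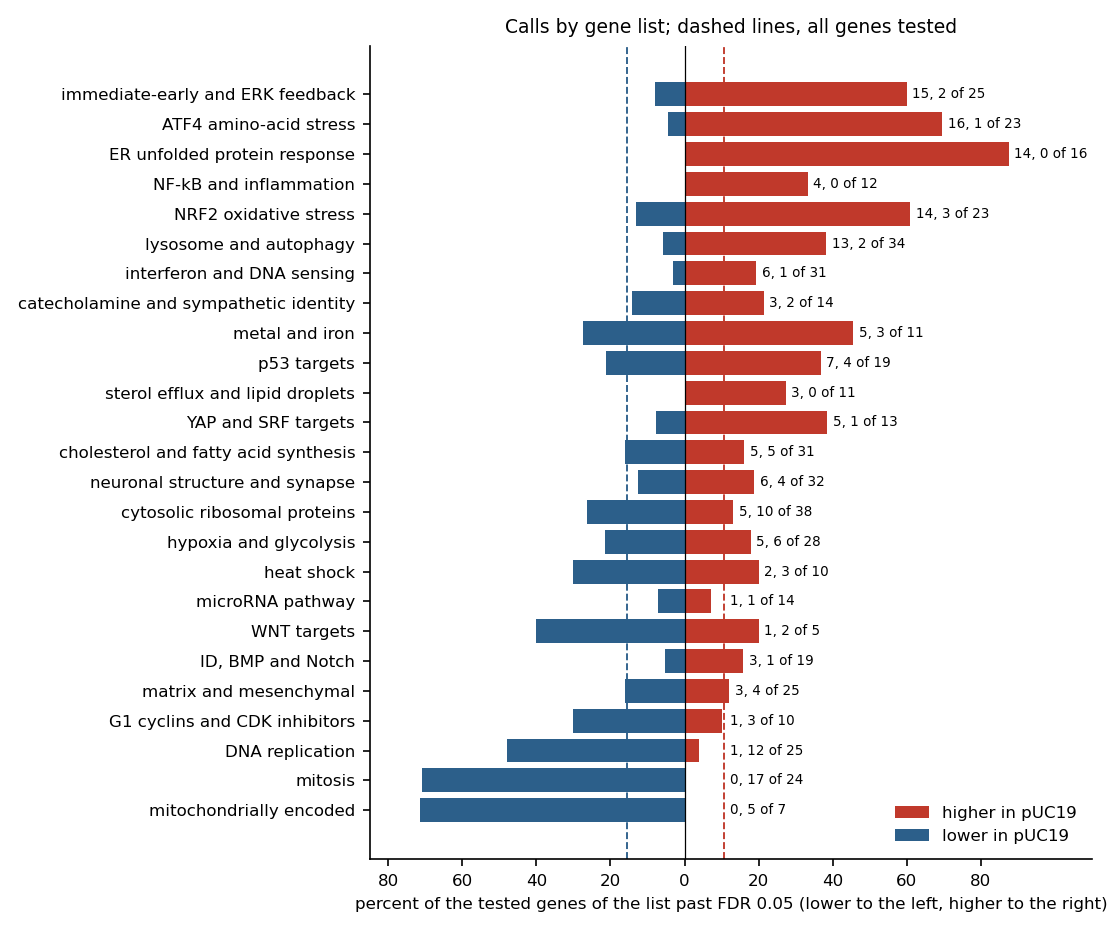
Percent of the tested genes of each list (rows) that were higher (red, to the right) or lower (blue, to the left) in the pUC19 libraries at an FDR of 0.05, with counts of higher, lower and tested genes beside the bars. Dashed lines mark all genes tested, 10.7% higher and 15.5% lower. Red bars are long for the unfolded protein response (14 of 16), ATF4 (16 of 23) and immediate-early lists (15 of 25), and blue bars for mitosis (17 of 24).

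The plot of calls by list sets each list beside all genes tested. The lists were chosen with earlier results of these data known, so the shares are descriptions and not tests. Some genes, such as Slc7a11 and Sqstm1, are members of several lists, which are then not separate from each other. Immediate-early genes, which respond rapidly to growth factor and stress kinase signals, and their ERK feedback inhibitors had 15 of 25 tested members higher and 2 lower, with a median of 0.70. Egr1, an early-response transcription factor, was at 34.6 and 41.8 CPM against 144 and 145 CPM (log2 fold change 1.92 ± 0.10, adjusted p = 2.47e-11). Ier3 was at 29.4 and 33 CPM against 111 and 118 CPM (1.87 ± 0.10, adjusted p = 6.97e-11). Fos, an AP-1 subunit, was at 10.1 and 9.31 CPM against 25.9 and 28.7 CPM (1.49 ± 0.11, adjusted p = 1.26e-08). Phlda1 was 1.25 higher on the log2 scale (25.9 and 26.8 CPM against 62.3 and 63.5 CPM). In the first experiment, scaled separately, DKO libraries in serum held Egr1 at 116 and 119 CPM and Phlda1 at 53.6 and 62 CPM. Those libraries held Ier3 at 32.5 and 34.2 CPM and Fos at 19.1 and 19 CPM. Of the stress genes named above, they held Atf3 at 3.38 and 3.81 CPM, Ddit3 at 6.18 and 6.09 CPM and Trib3 at 11.7 and 10.8 CPM. Hspa5 was at 828 and 845 CPM there, Hmox1 at 61.1 and 69.7 CPM and Slc7a11 at 7.75 and 8.75 CPM. The 2 members that fell, Dusp6 (336 and 333 CPM against 274 and 288 CPM) and Spred1, both restrain ERK signalling. Without pUC19 replicate 2 or untransfected replicate 1, fewer members of the list were called in either direction. Dusp8, a phosphatase for stress kinases, was at 1.58 and 1.22 CPM against 13.8 and 13.8 CPM (log2 fold change 3.30).

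Interferon genes with large fold changes were at low levels. Of 31 tested members of the interferon and DNA sensing list, 6 were higher (Cxcl10, Isg15, Oasl1, Isg20, Irf9 and Mx2), 1 was lower and 24 did not pass, with a median of 0.11. The shares, 19.4% higher and 3.23% lower, stand beside 10.7% and 15.5% over all genes. Cxcl10, an interferon-induced chemokine, held 2 reads over the untransfected libraries and 133 over the pUC19 libraries, at 0.0527 and 0.0509 CPM against 4.37 and 4.16 CPM. The ratio of counts per depth was 82.8 with an exact 95% counting interval of 22.5 to 690. Isg15, the ubiquitin-like modifier, was at 0.158 and 0.153 CPM against 1.53 and 2.04 CPM, and Oasl1 held 2 reads against 23 (ratio 14.3, interval 3.54 to 125). These 3 genes stayed under 5 CPM in all 4 libraries. Ifitm2, a membrane protein that restricts viral entry, was the member that fell, at 94.4 and 95.2 CPM against 60.3 and 47 CPM (log2 fold change -0.81, adjusted p = 4.62e-07). The sensor Cgas was at 0.949 and 0.967 CPM against 1.42 and 0.785 CPM and its adaptor Sting1 at 23.5 and 25.4 CPM against 18.4 and 23.7 CPM (adjusted p = 0.641 and 0.0956).

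Among NF-kB genes, 4 of 12 tested were higher (33.3%, beside 10.7% over all genes) and 0 lower (15.5% over all genes), with a median of 0.22. The subunit genes Rela and Relb were at 44.5 and 45.9 CPM against 63.2 and 65.3 CPM and at 2.64 and 2.24 CPM against 4.53 and 5.58 CPM. Csf1, the macrophage growth factor, was at 136 and 140 CPM against 169 and 173 CPM, and Il6 was under 2 CPM in all 4 libraries. The call of Il6 (log2 fold change 1.56) was lost without pUC19 replicate 1 (1.36) and without untransfected replicate 1 (1.45). Cxcl10 was at 0.906 and 0.852 CPM with the miR-138 mimic and 0.865 and 0.857 CPM with the miR-137 mimic, above the untransfected and below the pUC19 libraries.

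Many mitosis and DNA replication transcripts were lower, though both counts depended on single libraries. Of 24 mitosis genes, 17 were lower, 0 were higher and 7 did not pass, with a median of -0.25. In bulk libraries fewer cycling cells and less RNA per cell cannot be told apart. Top2a, the topoisomerase of chromosome separation, was at 1639 and 1520 CPM against 1225 and 1122 CPM (log2 fold change -0.43 ± 0.09, adjusted p = 0.00167). Cdk1, the mitotic kinase, was at 254 and 255 CPM against 191 and 188 CPM (-0.42 ± 0.08, adjusted p = 0.00107). Both differences were under 1.5-fold. Without untransfected replicate 1 the count of lower mitosis genes was 7, and without pUC19 replicate 2 it was 9. Of 25 DNA replication genes, 12 were lower, 1 was higher and 12 did not pass, with a median of -0.21, and the count of lower genes was 2 without pUC19 replicate 2 and 3 without untransfected replicate 1. Rrm1, of the nucleotide-reducing enzyme, was at 768 and 712 CPM against 600 and 554 CPM. The gene that rose, Cdt1, loads the replicative helicase and was at 224 and 237 CPM against 277 and 297 CPM (log2 fold change 0.31, adjusted p = 0.00103).

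Cdkn1a, the p21 cell-cycle inhibitor, was at 19.1 and 18.6 CPM in the untransfected libraries and at 56 and 60.3 CPM in the pUC19 libraries (log2 fold change 1.62 ± 0.12, adjusted p = 8.16e-09). Of 19 tested p53 targets, 7 were higher and 4 lower (Bax, Sesn1, Rrm2b and Ei24), with a median of 0.06. The shares, 36.8% higher and 21.1% lower, stand beside 10.7% and 15.5% over all genes. The lower count was 1 without pUC19 replicate 2 or untransfected replicate 1, and 2 without either other library. Bbc3, the death activator PUMA, was at 5.01 and 5.75 CPM against 15 and 17.7 CPM. Trp53inp1 was at 2.53 and 2.8 CPM against 9.29 and 8.8 CPM, and Gadd45a was 1.37 higher on the log2 scale. As background, Bbc3 is also a known target of CHOP and Gadd45a of ATF4. Of the 10 G1 genes, 1 was higher (Cdkn1a, 10%) and 3 lower (Cdkn2c, Rb1 and Ccnd1, 30%). Rb1 and Ccnd1 lost their calls, leaving 1 lower, without pUC19 replicate 2 or untransfected replicate 1, and Ccnd1 also without pUC19 replicate 1.

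**Figure D4:**
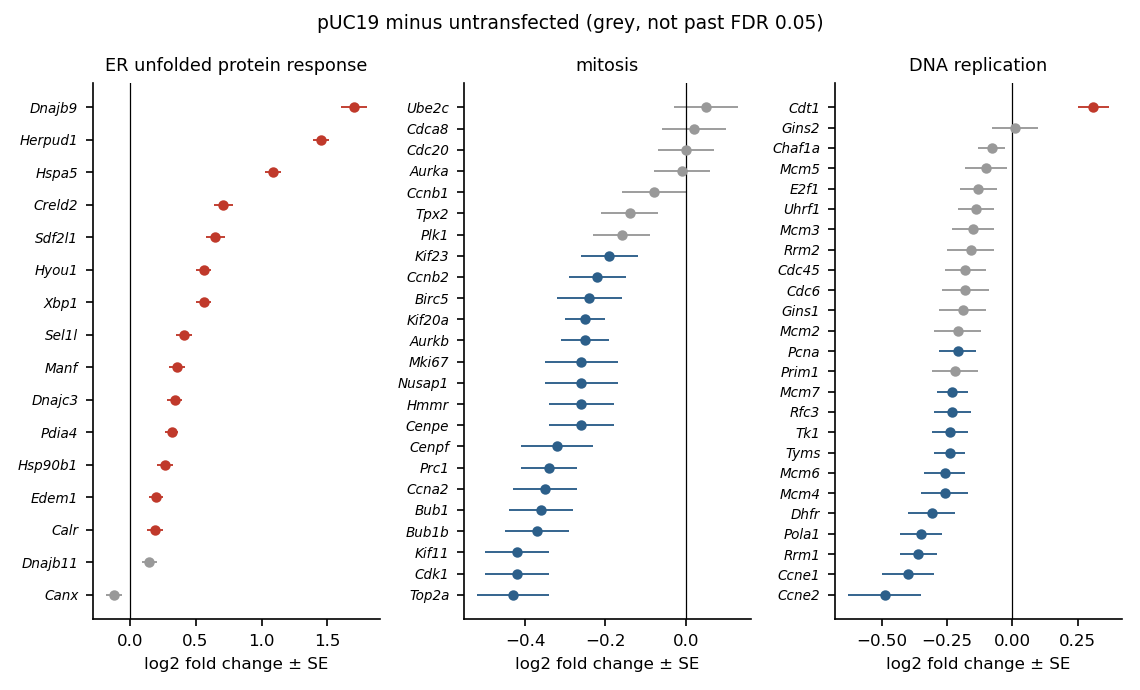
Log2 fold change of pUC19 minus untransfected libraries with its SE (horizontal, a separate scale in each panel) for every member of the unfolded protein response, mitosis and DNA replication lists (rows). Red and blue points passed an FDR of 0.05 as higher and lower, and grey points did not pass. The ER genes reach 1.70 (Dnajb9), while the mitosis genes go down to -0.43 (Top2a) and Cdt1 is the replication gene that rose.

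In the plot of ER and cell-cycle genes, the members of each list form a graded series. Dnajb9, Herpud1 and Hspa5 changed by more than 1 on the log2 scale, while no mitosis or replication gene did.

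Several of the largest rises were in no list. Vgf, a secreted neuropeptide precursor, was at 1.37 and 2.09 CPM against 32.7 and 38 CPM (log2 fold change 4.34 ± 0.15, adjusted p = 1.21e-13). In the first experiment, sequenced and processed separately, Vgf was at 16.6 and 16.6 CPM in DKO and 1707 and 1629 CPM in wild-type libraries. Car6, a secreted carbonic anhydrase, held 0 reads in the untransfected libraries and 253 over the pUC19 libraries, at 8.14 and 8.17 CPM, at least 105-fold higher against a floor of 3 counts over the group. Trim66, a chromatin-reader protein, was at 0.158 and 0.458 CPM against 9.01 and 9.5 CPM (4.86 ± 0.29, adjusted p = 3.51e-10). Without untransfected replicate 2 its log2 fold change was 5.80. The stress cytokine gene Gdf15 was at 1.53 and 1.63 CPM against 16.8 and 18.5 CPM, and Hid1, of dense-core vesicle formation, at 12.3 and 14.2 CPM against 71.7 and 82.4 CPM. Eno1b, at 17.9 and 20.2 CPM against 81.9 and 115 CPM, is a near-identical copy of enolase 1, and its value is uncertain.

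Neuronal genes had no common direction. Of 32 neuronal structure and synapse genes, 6 were higher (18.8%) and 4 lower (12.5%), with a median of 0. These shares lie near those over all genes, 10.7% higher and 15.5% lower. The RNA-binding proteins Elavl4 and Elavl2 were lower (182 and 165 CPM against 126 and 117 CPM, and 40.6 and 38.3 CPM against 27 and 25.4 CPM). The synaptic vesicle protein gene Syn1 was higher, at 1.11 and 1.53 CPM against 4.53 and 5.5 CPM, and so was the adhesion molecule gene L1cam (log2 fold change 0.44). Of 14 tested catecholamine genes, 3 were higher (21.4%) and 2 lower (14.3%). Dbh, which makes noradrenaline, was at 25.2 and 28.6 CPM against 13.8 and 15.4 CPM (-0.89 ± 0.18, adjusted p = 0.00113). Gch1, of the tetrahydrobiopterin cofactor, and Gata2 were higher (0.63 and 0.36).

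Among genes with at least 5 CPM in the higher group and no predicted or pseudogene name, the largest fall (mt-Nd6, -1.77) was smaller than the largest rises. Outside that limit, Gm14448 held 146 reads over the untransfected and 0 over the pUC19 libraries, at least 39.1-fold lower. Among protein-coding genes with no close copy, St6galnac5, a ganglioside sialyltransferase, was at 8.8 and 9.36 CPM against 3.44 and 3.69 CPM (log2 fold change -1.36). Slco1c1, a thyroid hormone transporter, was at 11.9 and 10.8 CPM against 4.48 and 4.56 CPM (-1.33), and Chst15, a chondroitin sulfotransferase, at 27.9 and 29.8 CPM against 14.5 and 13.6 CPM (-1.04). All 3 were about 2-fold or more lower in both pUC19 libraries. Nptx1, a synaptic pentraxin, was at 5.17 and 5.34 CPM against 2.35 and 2.83 CPM, with 0.354 and 0.482 CPM under the miR-138 mimic and 7.71 and 8.21 CPM under the miR-137 mimic. Rtl1, Lrrfip1 and Ptpn6, a phosphatase of blood-cell signalling, fell by 1.12, 1.12 and 1.07 on the log2 scale.

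Mitochondrially encoded transcripts were lower in 5 of 7 tested (71.4%, beside 15.5% over all genes), with 0 higher and a median of -0.43. mt-Nd6, the subunit encoded on the opposite strand, was at 337 and 388 CPM against 120 and 90.4 CPM (-1.77 ± 0.13, adjusted p = 1.22e-08), and with unstranded counts its fold change was -0.60. mt-Cytb was at 5406 and 6942 CPM against 4349 and 3938 CPM (-0.58, adjusted p = 0.00248). The 2 untransfected libraries differed from each other here, and without untransfected replicate 2 the count of lower members was 1 and mt-Cytb lost its call (-0.39). Without pUC19 replicate 2 the count was 2. Among the largest losses in CPM, Ncl, nucleolin, was at 3444 and 3158 CPM against 2612 and 2266 CPM (-0.44), and Hnrnpab at 2259 and 2185 CPM against 1805 and 1632 CPM (-0.37).

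Some differences lay in genes with near-identical copies, where the authors' counting left out reads that mapped to several places. Of the 304 tested RefSeq pseudogenes (2.4% of genes tested), 59 were among the 215 genes at least 2-fold higher (27.4%) and 18 among the 63 at least 2-fold lower (28.6%). Of 27 pseudogenes named after ribosomal proteins, 17 were higher and 0 lower, with a median log2 fold change of 1.79. Their summed level was 342 and 330 CPM in the untransfected, 567 and 689 CPM in the pUC19, 296 and 495 CPM in the miR-138 mimic and 605 and 638 CPM in the miR-137 mimic libraries. The 2 miR-138 mimic libraries differed by more than those of any other serum group. Rpl31-ps8, for example, was at 31.1 and 23.7 CPM against 131 and 171 CPM, with 28.5 and 119 CPM under the miR-138 mimic. The share of assigned reads in pseudogenes was also higher, 0.221% and 0.22% in the untransfected and 0.239% and 0.267% in the pUC19 libraries. Reads mapped to several places were fewer, 18.5% and 18.5% against 17.7% and 17.3%, but were 18.2% and 18% in the miR-137 mimic libraries, where the pseudogene sum was also high. The part of such reads in these calls was not tested. Without pseudogenes 159 genes were at least 2-fold higher and 45 at least 2-fold lower.

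**Figure D5:**
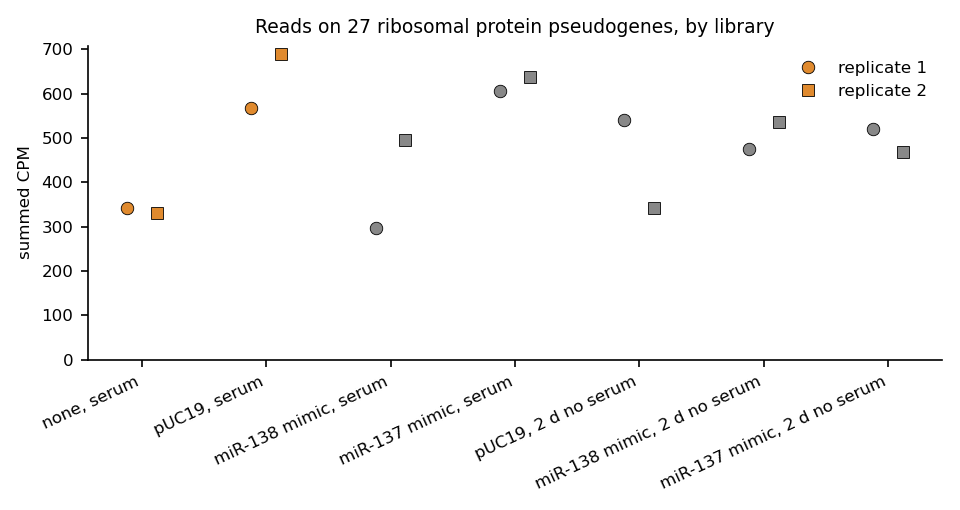
Summed CPM (vertical, from 0) of 27 ribosomal protein pseudogenes in each of the 14 libraries (horizontal, by group), with a circle for replicate 1 and a square for replicate 2, and orange for the compared groups. The pUC19 libraries lie at 567 and 689 and the untransfected ones at 342 and 330, while the miR-138 mimic libraries in serum lie at 296 and 495.

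In the plot of summed pseudogene levels, the libraries of 1 group can lie as far apart as those of different groups. Ribosomal protein genes themselves were mixed, with 5 of 38 higher (3 without untransfected replicate 1) and 10 lower and a median of -0.02. The shares, 13.2% higher and 26.3% lower, stand beside 10.7% and 15.5% over all genes. Rpl7, at 545 and 477 CPM against 323 and 298 CPM, and Rps14, at 121 and 122 CPM against 195 and 214 CPM, moved in opposite directions. Some of the largest falls were genes after which pseudogenes are named, and their values are uncertain: Pgam1 (9.96 and 7.78 CPM against 2.4 and 2.98 CPM), H3f3a (203 and 191 CPM against 95.1 and 75.9 CPM) and Cbx3 (29.4 and 27.2 CPM against 13.5 and 11.6 CPM). Snrpg, a splicing factor subunit, was at 23 and 22.2 CPM against 7.27 and 6.44 CPM, and the nucleolar gene Npm1 at 1322 and 1191 CPM against 729 and 530 CPM. Pgam1 was at 135 and 120 CPM in the DKO libraries of the first experiment, which used 75-base reads rather than 50-base reads. Rpl7 was at 1644 and 1868 CPM there. Hspa8, at 391 and 417 CPM in the untransfected libraries here, was at 2583 and 2586 CPM there. Pseudogenes are also named after Rpl7, Hspe1 and Hspd1, so the values of these genes are uncertain too. H3f3a changed direction with unstranded counts (1.03, adjusted p = 6.51e-07).

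The remaining lists held calls in both directions, and leaving out 1 of the 4 libraries moved most of their counts. Over all genes tested, 10.7% were higher and 15.5% lower. Of 10 heat shock genes, 2 were higher (Hspe1 and Bag3, the latter lost without either pUC19 replicate or untransfected replicate 1) and 3 lower, Hspa8 and Hspd1 among them, with a median of -0.04 (20% higher, 30% lower). Of 31 cholesterol and fatty acid synthesis genes, 5 were higher and 5 lower, with a median of 0. With a library left out, 1 to 3 were higher and 2 to 3 lower. The fatty acid enzymes Acly and Elovl6 fell by 0.38 and 0.37 on the log2 scale. Of 28 hypoxia and glycolysis genes, 5 were higher and 6 lower, with a median of -0.02, and 3 to 4 of each with a library left out. The growth factor gene Vegfa was at 135 and 143 CPM against 222 and 228 CPM. Of 25 matrix genes, 3 were higher and 4 lower (2 to 3 of each with a library left out), with fibronectin, Fn1, at 1622 and 1638 CPM against 1185 and 1233 CPM. Of 13 YAP and SRF targets, 5 were higher (3 without either untransfected replicate) and 1 lower (0 without pUC19 replicate 1), led by Amotl2 (1.23) and Ccn1 (1.35). Of 19 ID, BMP and Notch genes, 3 were higher, Id3 by 0.74, and 1 lower, with 1 to 4 higher and 0 to 1 lower when a library was left out. Of 5 WNT targets, 1 was higher (Lef1, lost without untransfected replicate 2) and 2 lower (Lgr5 and Dkk1, by 0.75 and 0.39). Of 14 microRNA pathway genes, 1 was higher (Ago3, adjusted p = 0.0101) and 1 lower (Drosha, adjusted p = 0.0472). Ago3 lost its call without pUC19 replicate 1 or untransfected replicate 1, and Drosha when any library other than pUC19 replicate 1 was left out.

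After 2 days without serum, cells that had received pUC19 held Ddit3 at 8.8 and 13 CPM and Hmox1 at 31 and 27.1 CPM. The series holds no untransfected library at that time, so no transfection comparison could be made. By chromosome, medians of the tested genes ran from -0.116 (chromosome X) to -0.006 (chromosome 15), and running medians over 49 neighbouring genes from -0.24 to 0.165.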

How the data were processed

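PolyA RNA was sequenced as 50-base single-end stranded libraries, per the labels' protocols. The submitters' processing notes name STAR and mm9, with no role given for the other tools they list. The deposited values are raw counts per gene that the authors obtained from reads mapped to 1 place, and the reverse-strand column was used. Gene IDs were named from a table of IDs and symbols (32620 of 37310 matched, 87.4%), and RefSeq supplied biotypes (12024 of 12655 tested genes, 95%) and promoter sequences of GRCm38.p6, with no coordinates taken from the files. Summary rows that name no gene stayed out of library sizes. In the 4 libraries they held unmapped reads (5.07% to 5.8%) and reads mapped to several places (17.3% to 18.5%). The others were reads in no gene on the counted strand (5.97% to 7.74%) and ambiguous reads (0.458% to 0.467%).

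Counts of all 14 libraries of the experiment (7 groups of 2) were filtered with filterByExpr (at least 10 counts, 15 in total), scaled by TMM and tested with edgeR 4.0.16 in R 4.3.3 (glmQLFit and glmQLFTest, two-sided), with Benjamini-Hochberg adjustment over all 12655 genes and an FDR of 0.05. CPM values use TMM library sizes. Values from the first experiment were scaled separately and are levels only. The rule for named genes took the 12 largest rises and falls with at least 5 CPM in the higher group, groups that do not overlap and a symbol that is not a predicted, clone or pseudogene name, the 6 largest gains and losses in CPM (same symbol rule), up to 4 members of each list by adjusted p, and members that define a list. Genes named for a promoter match, a fall within a list or a low level were chosen after their values were seen. The members and lists were chosen with earlier results of these data known. Counting intervals and floors cover counting error only, and depth ranged from 12885638 to 20729475 assigned reads. On simulated data with 200 of 12655 genes changed, the fit recovered 92% of 2-fold and 74% of 1.5-fold changes for this comparison. Of its calls, 5.14% were false. The simulated libraries were independent and the changes equally up and down, while 26.2% of genes were called in the real data. The false share of the real calls therefore cannot be read from it. Alternatives were DESeq2 1.42.0, RLE scaling, no count filter, a replicate block, unstranded counts, fewer libraries and each library left out.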

Additional observations from a re-analysis of the deposited data

Results flagged for a closer look

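Reads mapped to 1 place but in no gene on the counted strand averaged 7.47% in the pUC19 libraries (7.2% and 7.74%). That was above the untransfected libraries (5.97% and 6.18%, mean 6.07%). The class also takes in reads that lie in a gene but on its opposite strand. This class enters no gene comparison of the main fit and was marked because its share lay above that of the control libraries. The miR-138 mimic libraries held 5.34% and 7.03% and the miR-137 mimic libraries 6.21% and 7.36%. The source of these reads was not tested.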

How the results depend on the processing

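For pUC19 against untransfected cells, the count of 3321 genes was 2574 with DESeq2 (982 adjusted p-values not given), 3260 with RLE scaling, 3191 without the count filter, 3267 with unstranded counts, 3448 with the serum libraries alone, 2990 with the 4 libraries alone, 3150 without miR-138 mimic replicate 1 (1327 higher, 1823 lower) and 3271 without pseudogenes (the last 2 chosen after seeing the data). Leaving out each of the 4 libraries in turn gave 1730 to 2764 genes, with 757 to 1220 higher, 931 to 1613 lower, 162 to 215 at least 2-fold higher and 56 to 65 at least 2-fold lower. At least 2-fold lower genes numbered 63, and 32 with DESeq2. The cause was not tested. The mimic comparisons with pUC19 ran from 5888 to 7328 and from 4259 to 6037 genes. The lowest chromosome median ran from -0.131 to -0.099 and the highest from -0.012 to 0.031 when a library was left out, and these were -0.108 and 0 with RLE scaling. Of 1508 values of the 116 named genes, 1448 kept direction and call, 59 lost the call and 1 reversed (H3f3a with unstranded counts, 1.03). Ddit3 was 2.71 with unstranded counts. Calls of Fth1, Actb, Hsp90ab1 and Drosha were among those lost. The labels do not say that replicate numbers pair the libraries. Correlations of deviations over 21 pairs of groups ran from -0.25 to 0.173. The value was 0.168 for pUC19 with untransfected, near the top of that range, so a pairing was not settled. With a replicate block 3738 genes passed, and 116 of 116 named genes kept their call. With 2 libraries a group, small differences rest on a spread shared across the 7 groups.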

Other observations

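Some genes outside the lists, chosen after their values were seen and so no support for any list, were also at least 2-fold higher. Ppp1r15a, the phosphatase subunit that reverses eIF2alpha phosphorylation, was at 24.8 and 25 CPM in the untransfected and 98.4 and 115 CPM in the pUC19 libraries (log2 fold change 2.10 ± 0.08, adjusted p = 2.88e-13), with 65.4 and 62.5 CPM under the miR-138 mimic. Syvn1, the ubiquitin ligase of ER-associated degradation, was at 69.6 and 71.1 CPM against 137 and 158 CPM, and the ER isomerase gene Fkbp11 at 16.5 and 17.9 CPM against 37.1 and 40.8 CPM. The small Maf factor gene Maff was at 10.5 and 10.6 CPM against 34.1 and 32.5 CPM, and at 9.96 and 10.7 CPM under the miR-138 mimic. The histone demethylase gene Kdm6b was at 80.6 and 87 CPM against 169 and 185 CPM, with 64.9 and 68.9 CPM under the miR-138 mimic and 184 and 171 CPM under the miR-137 mimic.

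Some low-level genes passed with few reads. The ATP-gated channel gene P2rx7 was at 0.316 and 0.356 CPM against 2.08 and 1.65 CPM (adjusted p = 7.03e-05). Cd74, the invariant chain of antigen presentation, was at 0.0527 and 0.0509 CPM against 0.819 and 1.1 CPM. The muscle-type subunit gene Cox6a2 held 0 reads in the untransfected and 33 in the pUC19 libraries, at least 13.7-fold higher against a floor of 3 counts over the group. In the opposite direction, the predicted gene Gm13394 was at 203 and 201 CPM in the untransfected libraries, at 56.5 and 42.8 CPM in the pUC19 libraries and between 49.7 and 55.2 CPM in the mimic libraries in serum.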
